A study of Schizosaccharomyces pombe with 2 samples.

Results

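The genes described here are the hexose transporter genes ght1 to ght8 and the hexokinase genes hxk1 and hxk2 of fission yeast, Schizosaccharomyces pombe. They were chosen by name, as the S. pombe probe sets whose platform gene symbol is 1 of these 10, and all 10 were found, each with 1 probe set, among the 2896 S. pombe genes that had a named probe set. The measurements come from 2 Affymetrix Yeast Genome 2.0 arrays. One carried RNA of cells given 0.5 mM DETA NONOate, a compound that sets nitric oxide free slowly in solution, for 2 h, and the other carried RNA of untreated cells. Both cultures were in mid-log phase in YES, a rich medium whose carbon source is glucose, at 30 °C, and the labels name no strain and give no time for the untreated culture. The question was how log-phase cells respond to the donor, and without an array for spent donor, nitric oxide cannot be told apart from the remainder of the molecule.

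Sugar transporters of the Ght family carry hexoses across the plasma membrane, and hexokinases then add a phosphate that commits the sugar to glycolysis or to the pentose phosphate pathway. Ght5 is the high-affinity glucose transporter on which growth at low glucose depends, Ght1 and Ght2 also carry glucose, Ght6 prefers fructose, and Ght3 carries gluconate, an oxidised form of glucose. Glucose keeps the genes for other carbon sources low, through the cyclic AMP pathway and protein kinase A and through the repressor Scr1, which is known to hold down ght5. The AMP-activated kinase Ssp2 and the kinase complex TORC2 are needed for Ght5 to be made and kept at the cell surface when glucose is scarce.

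Each value is the linear signal of a probe set, and each array had been scaled to the same 2% trimmed mean, at 500.3 on each. Background was the 95th percentile of the 2601 probe sets that were designed for budding yeast, Saccharomyces cerevisiae, and so should find no match in this RNA. It was 8.76 on the DETA NONOate array and 7.99 on the untreated array, and signals under it were set to it before taking log2. The log2 ratio is the treated minus the untreated array. Of the 2896 S. pombe genes, 2889 were over background on at least 1 array, and these are called measured. The annotation holds 5124 protein-coding genes, so ranks and shares leave out the many without a named probe set. With 1 array per group there is no replicate check and no p-value, and 2-fold marks a difference here. The 64 probe sets for added control RNAs that were over background had log2 ratios from −0.76 to 0.42 with an SD of 0.24. That spread leaves out differences between cultures.

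The gluconate transporter gene ght3 was 4.58-fold higher on the DETA NONOate array, and the dim gene ght7 was at least 2.56-fold lower, a bound that depends on the background level. The other 6 transporter genes and both hexokinase genes stayed within 2-fold, the widest of them being ght4 at 1.54-fold and ght5 at 1.33-fold. Of the 10 members, 1 (ght3) was at least 2-fold higher, against 2.25% of all measured genes, and 1 (ght7) was at least 2-fold lower, against 2.04%. At 1.5-fold, 2 members were higher (ght3 and ght4), against 5.68% of all measured genes, and 1 was lower, against 6.61%. At 3-fold, 1 was higher (ght3), against 0.9%, and 0 were lower, against 0.623%. The median log2 ratio of the 10 members was 0.18, beside −0.01 over all measured genes, and became 0.06 after quantile normalization and 0.08 with the trend of ratio on signal removed. Of the members, 7 of the 10 had a ratio above 0, as did 49.2% of all measured genes, while 3 had a ratio below 0, against 50.8%. With so few members, these shares describe the family and are not a result about it.

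**Figure D1:**
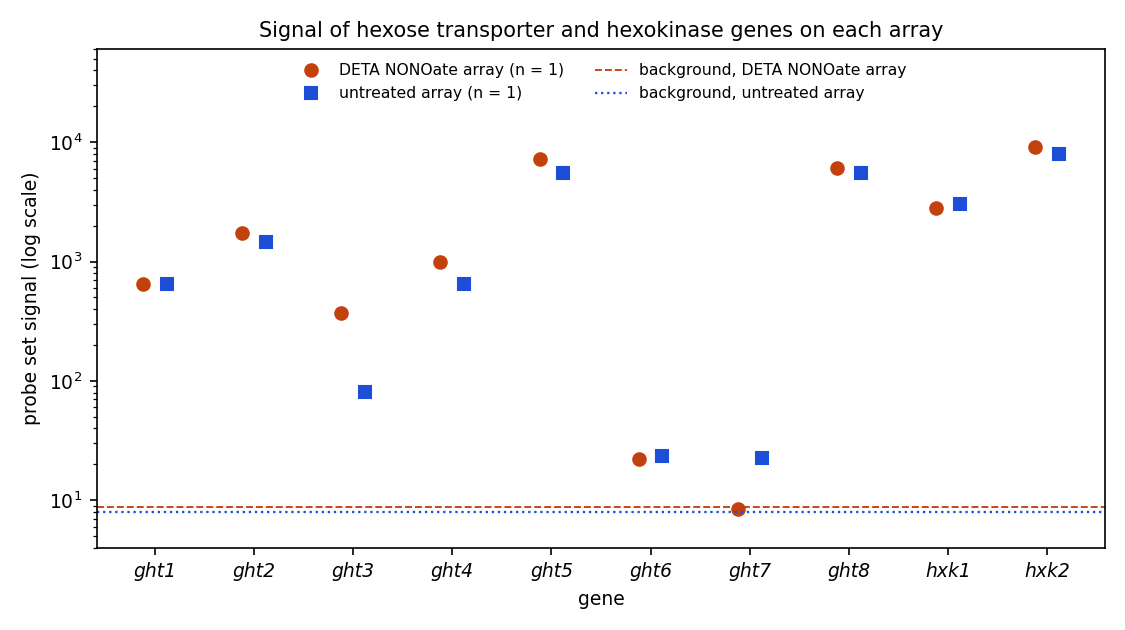
Probe set signal (log axis) of the 10 members on the DETA NONOate array (circles) and the untreated array (squares), 1 array each, with the background of each array as a line. The gap is widest for ght3, at 373 against 81.5, and the ght7 signal of 8.52 on the DETA NONOate array lies under the background of 8.76.

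Among the transporters, ght3 (SPAC1F8.01) had a signal of 373 on the DETA NONOate array, against 81.5 on the untreated array. It was 4.58-fold higher, a log2 ratio of 2.20 and the ninth highest (rank 9) of 2889 measured genes. The signal stood 42.6 times over background on the DETA NONOate array and 10.2 times over it on the untreated array, so the gene was measured on both. Genes of similar signal, between 100 and 1000 on average, had log2 ratios whose central 95% ran from −0.81 to 0.80, and 2.77% of the 1552 such genes differed 2-fold or more. The ght3 ratio was far outside that range. Genes measured on both arrays with the ratio nearest to that of ght3 were the siderophore-iron transporter gene str1 (4.37-fold higher), the F-box protein gene pof14 (4.31-fold) and sre1 (4.26-fold), the gene of a transcription factor that responds to sterols and low oxygen. Likeness here is the difference in log2 ratio, at most 0.10 for these 3 genes, and rests on 2 arrays alone.

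Next was ght4 (SPBC1683.08), with a signal of 989 on the DETA NONOate array, against 644 on the untreated array. It was 1.54-fold higher, with a log2 ratio of 0.62. A share of 94.8% of measured genes had a lower ratio, and the value lay inside the central 95% of genes of similar signal.

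The high-affinity glucose transporter gene ght5 (SPCC1235.14) had a signal of 7294 on the DETA NONOate array, against 5484 on the untreated array. Its log2 ratio was 0.41, or 1.33-fold higher. Its family member ght8 (SPCC548.06c) had signals of 6084 on the DETA NONOate and 5483 on the untreated array, a log2 ratio of 0.15. Both signals are in a range where ratios leaned upward: the 227 genes with a mean signal of 5000 or more had a median log2 ratio of 0.17, and their central 95% ran from −0.40 to 0.49. Neither gene lay outside it. After quantile normalization the ratios were 0.34 for ght5 and 0.09 for ght8.

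The glucose transporter gene ght2 (SPBC4B4.08) had a signal of 1740 on the DETA NONOate array, against 1458 on the untreated array, a log2 ratio of 0.26. Another glucose transporter gene, ght1 (SPCC548.07c), had nearly equal signals, 646 on the DETA NONOate and 644 on the untreated array, a log2 ratio of 0.00. The ratios of ght1, ght2, ght5, ght6, ght8, hxk1 and hxk2 lay inside the range of the added control RNAs, −0.76 to 0.42, and that of ght4 lay above it.

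The members ght6 and ght7 were near background, and their ratios rest on dim signals. The fructose transporter gene ght6 (SPCC1235.13) had signals of 22.2 on the DETA NONOate array and 23.7 on the untreated array, 2.53 and 2.96 times background, and a log2 ratio of −0.09. Of the 2601 S. cerevisiae probe sets, 8 were brighter than ght6 on the DETA NONOate array and 5 on the untreated array. The last transporter gene, ght7 (SPBC1348.14c), had a signal of 8.52 on the DETA NONOate array, just under background, against 22.4 on the untreated array, 2.80 times background. It was at least 2.56-fold lower. On the DETA NONOate array 142 S. cerevisiae probe sets were brighter than ght7, and on the untreated array 5 were. The bound depends on how background is set: the log2 ratio of −1.36 became −0.55 with background at the 99th percentile and −0.65 with 16 added to each signal in place of a background level, and neither passes 2-fold. Among the 195 genes with a mean signal under 100, 9.23% differed 2-fold or more, and the central 95% of their log2 ratios ran from −1.09 to 1.40.

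**Figure D2:**
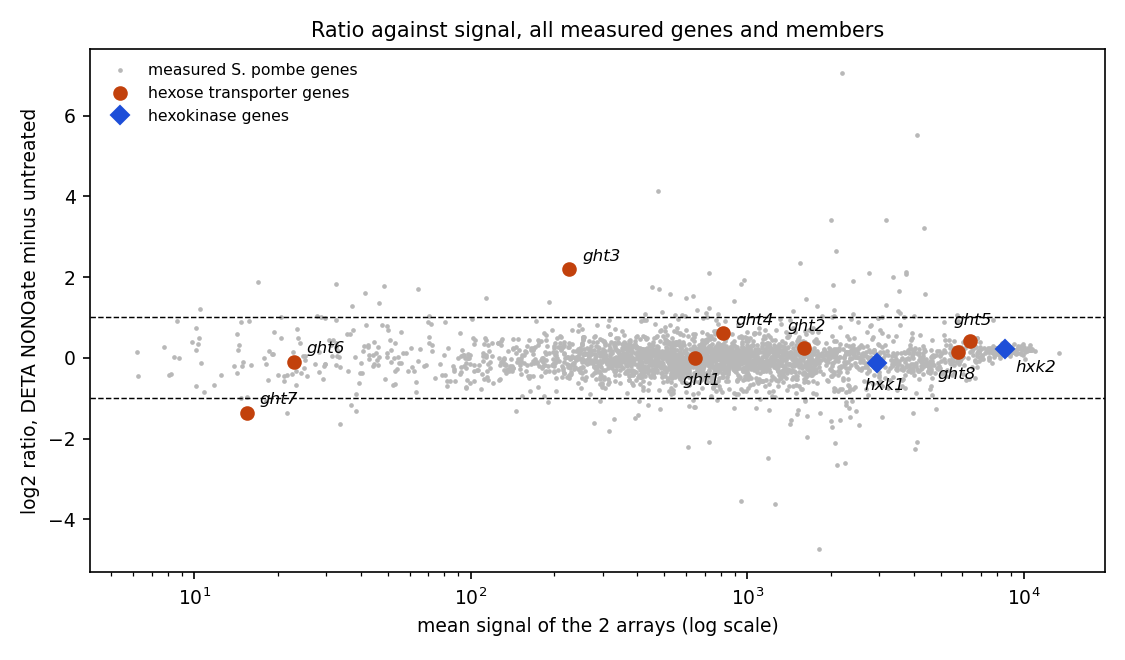
Log2 ratio (DETA NONOate minus untreated) against the mean signal of the 2 arrays (log axis) for the 2889 measured genes (grey), the 8 transporter genes (circles) and the 2 hexokinase genes (diamonds). Dashed lines mark 2-fold. Of the members only ght3, at 2.20, and ght7, at −1.36 with its treated signal raised to background, lie outside them.

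Hexokinase genes differed little. The hxk2 gene (SPAC4F8.07c), for the main glucose-phosphorylating hexokinase, had a signal of 9180 on the DETA NONOate array, against 7944 on the untreated array, a log2 ratio of 0.21 that became 0.01 after quantile normalization. Its paralogue hxk1 (SPAC24H6.04), for a hexokinase with low affinity for glucose, had signals of 2819 on the DETA NONOate and 3054 on the untreated array, a log2 ratio of −0.12. Both ratios lay inside the SD of the added control RNAs. The S. cerevisiae hexokinase probe sets HXK1 and HXK2, which belong to the same enzyme family but have no target here, had signals of 0.454 and 3.26 on the DETA NONOate array and 0.433 and 3.62 on the untreated array, all under background.

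The members are spread over the 3 chromosomes, and the gene order of the RefSeq assembly ASM294v3 shows which genes lie beside them. The transporter genes ght6, ght5, ght8 and ght1 lie close together in this order on chromosome III, with 2 protein-coding genes between ght6 and ght5, 4 between ght5 and ght8 and 0 between ght8 and ght1. These 4 neighbours had log2 ratios of −0.09, 0.41, 0.15 and 0.00 in that order, so none of the clustered genes differed 2-fold. The 2 transporter genes with the highest ratios, ght3 and ght4, lie elsewhere, on chromosomes I and II.

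Both ght3 and ght4 lie beside an iron uptake gene that was far higher on the DETA NONOate array. The nearest measured gene after ght3 was str3 (SPAC1F8.03c), whose product imports siderophore-bound iron. It had a signal of 4379 on the DETA NONOate array, against 33.0 on the untreated array, a log2 ratio of 7.05. Between ght3 and str3 lies 1 protein-coding gene, shu1, for a cell surface protein of haem uptake, which has no named probe set and no value here. The gene directly after ght4 was frp1 (SPBC1683.09c), a ferric reductase gene, with a signal of 8039 on the DETA NONOate array, against 175 on the untreated array, a log2 ratio of 5.52. By their systematic names, in which a final c marks the opposite strand, each of these transporter genes points toward its iron neighbour, and the annotated transcripts of the pair do not overlap. The labels do not say which strand the probe sets detect.

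On the other side of ght4 is mal1 (SPBC1683.07), the gene of a maltase that splits maltose into glucose. Its signals were 1017 on the DETA NONOate array and 530 on the untreated array, 1.92-fold higher, so ght4 lay between a carbon gene and an iron gene that were both higher than itself in ratio. The nearest measured gene before ght3 was dak2 (SPAC977.16c), for a dihydroxyacetone kinase of glycerol use, with signals of 1294 on the DETA NONOate array and 489 on the untreated array, 2.65-fold higher. It is separated from ght3 by 3 protein-coding genes with no value.

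Around the other members the picture was mixed. The gene wtf5, of the repeated wtf family of spore killer genes whose copies a probe set may not separate, was the nearest measured gene after ght1, with 2 genes without a value between, and was 2.59-fold higher. The dim gene mug146, beside ght6, had signals of 16.4 on the DETA NONOate array and 50.6 on the untreated array, 3.09-fold lower. The transcription factor gene grt1, the nearest measured gene to ght7, had 5.99 on the DETA NONOate array, under background, against 15.6 on the untreated array, and was at least 1.79-fold lower. With background at the 99th percentile its log2 ratio was −0.036, so that bound depends on the background too. No measured gene lies on the other side of ght7 on chromosome II.

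Around ght2, ght5, ght8, hxk1 and hxk2, the nearest measured genes that are no members stayed within 2-fold. They were the splicing genes usp102 (log2 ratio −0.13) and prp39 (−0.06) beside ght2, the triglyceride synthesis gene dga1 (0.30) beside ght5, and urm1 (−0.29), for a ubiquitin-like modifier, beside ght8. Beside hxk1 were the mitotic phosphatase gene cdc25 (0.42) and the cullin gene cul3 (0.30). Beside hxk2 were the meiotically upregulated gene mug114 (−0.44) and the mitochondrial ribosomal protein gene mrpl28 (−0.62). The mug114 signals were dim, 17.8 on the DETA NONOate array and 24.2 on the untreated array. With 16 added to each signal its log2 ratio was −0.25. The gene dbl5 lies between urm1 and ght8, and mrps12 between hxk2 and mrpl28, both without a value. In all, of the 15 measured genes that lie nearest to a member and are no members themselves, 4 (26.7%) were at least 2-fold higher, against 2.25% of all measured genes, and 1 (6.67%) was at least 2-fold lower, against 2.04%. The 4 were dak2 and str3, both beside ght3, frp1 beside ght4 and wtf5 beside ght1, and the lower one was the dim gene mug146. These shares rest on few genes, describe the neighbours and are not a result about them.

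Over all measured genes a different count was made, of the genes nearest to a gene that itself differed 2-fold. The genes counted above lie beside members whatever the members' ratio, so the shares are not like for like. Of the 123 measured genes nearest to a gene at least 2-fold higher, 8 (6.50%) were at least 2-fold higher too, against 2.25% of all measured genes, a description of these arrays with no test. That count includes ght3, dak2 and str3 themselves, and ght4 is among the 123 genes. Without the members and the genes nearest to them it was 5 of 114 (4.39%). Of the 115 genes nearest to a gene at least 2-fold lower, 6 (5.22%) were at least 2-fold lower too, against 2.04%. Whether the ratios of ght3 and ght4 have to do with their neighbours was not tested.

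**Figure D3:**
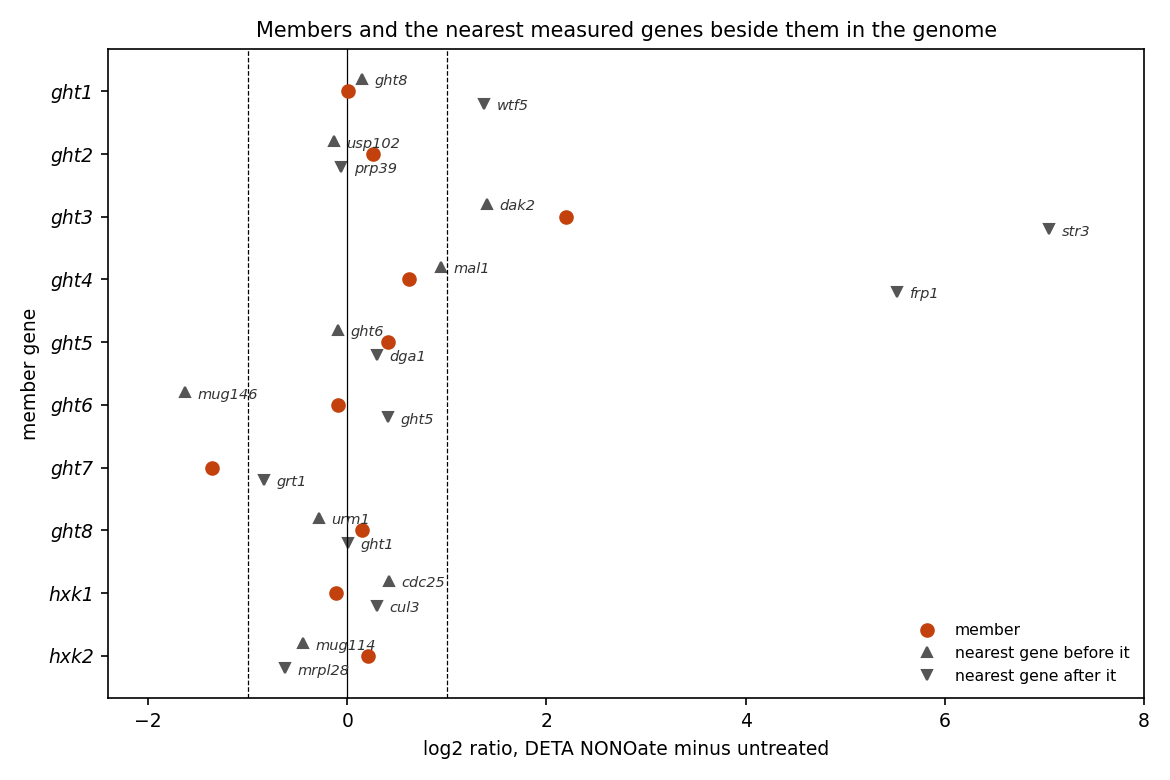
Log2 ratio (DETA NONOate minus untreated) of each member (circles) and of the nearest measured protein-coding gene before (upward triangles) and after it (downward triangles) in the annotation. Dashed lines mark 2-fold. The genes str3 beside ght3, at 7.05, and frp1 beside ght4, at 5.52, lie far to the right of all others.

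Genes of the steps that use the product of the hexokinases stayed within 2-fold, except for adh4. The lists are short, so counts at 2-fold in this list and in those below describe them and are not a result about them. Of the list for glycolysis and fermentation after hexokinase, 11 of 14 genes were measured, with a median log2 ratio of 0.28. Of the 11, 0 were at least 2-fold higher, against 2.25% of all measured genes, and 1 was at least 2-fold lower, against 2.04%. A ratio above 0 was seen for 10, against 49.2% of all measured genes. The mitochondrial alcohol dehydrogenase gene adh4 was the lower one, with signals of 1045 on the DETA NONOate array and 2176 on the untreated array, 2.08-fold lower. The others lay close together, from gpm1 (phosphoglycerate mutase) at 0.10 to eno102 (an enolase) at 0.34, with pyk1 (pyruvate kinase) also at 0.34 and pgk1 (phosphoglycerate kinase) at 0.31. The 227 genes with a mean signal of 5000 or more, among which most of these are, had a median of 0.17. After quantile normalization 8 had a ratio above 0 and the median was 0.11, and with the trend of ratio on signal removed the median was 0.12.

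In the list for gluconate use and the pentose phosphate pathway, 2 of 10 genes were measured, and neither differed 2-fold. At that fold, 2.25% of all measured genes were higher and 2.04% lower. The gene zwf1, for glucose-6-phosphate dehydrogenase, which draws the product of hexokinase into the pentose phosphate pathway, had signals of 6701 on the DETA NONOate array and 3631 on the untreated array, 1.85-fold higher. The transaldolase gene tal1 was 1.20-fold higher. The gluconokinase gene idn1 and the 6-phosphogluconate dehydrogenase gene gnd1, through which gluconate brought in by Ght3 would pass, have no named probe set and no value here.

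Genes of glucose sensing showed small ratios, mostly above 0, where 49.2% of all measured genes were above 0. At 2-fold, 2.25% of all measured genes were higher and 2.04% lower. In the cyclic AMP and protein kinase A list, 14 of 14 genes were measured, 0 differed 2-fold and 12 had a ratio above 0, with a median log2 ratio of 0.24. The largest were git5 (0.77), a subunit of the G protein that relays the glucose signal, pka1 (0.65), the catalytic subunit of protein kinase A, git1 (0.60), which is needed to activate adenylate cyclase, and cgs1 (0.45), the regulatory subunit of the kinase. The gene of the glucose receptor, git3, had a log2 ratio of 0.00.

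In the list for glucose repression and the AMP-activated kinase, which holds hxk2 too, 11 of 12 genes were measured, with a median log2 ratio of 0.24. Of the 11, 9 had a ratio above 0, against 49.2% of all measured genes. At 2-fold 0 differed, where 2.25% of all measured genes were higher and 2.04% lower. With so few genes, that count of 0 is not a result about the list. The kinase gene ppk9 had 0.55, ssp2, the catalytic subunit of the AMP-activated kinase, 0.33, and rst2, the transcription factor that opposes glucose repression, 0.33. The stress and glucose response gene sds23 had 0.30 and the repressor gene scr1 had 0.24. For TORC2 and the sorting of transporters, 11 of 14 genes were measured, and the same shares over all measured genes apply. Of the 11, 0 differed 2-fold and 7 were above 0, with a median of 0.07. The kinase gene gad8, downstream of TORC2, had a log2 ratio of 0.46, and the TORC2 genes ste20, tor1 and bit61 had 0.45, 0.41 and −0.32.

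Among genes for other carbon sources or thought to be held down by glucose, 12 of 14 were measured, 2 were at least 2-fold higher, against 2.25% of all measured genes, and 1 (adh4, above) at least 2-fold lower, against 2.04%. The median log2 ratio was 0.38 and 8 of the 12 were above 0, against 49.2%. The polyol dehydrogenase gene tms1 had signals of 1544 on the DETA NONOate array and 407 on the untreated array, 3.79-fold higher, and is also known as a general stress gene. The invertase gene inv1, which splits sucrose outside the cell, had 4107 on the DETA NONOate array and 2034 on the untreated array, 2.02-fold higher. The maltase gene mal1, beside ght4, is the fourth gene the rule names in this list. The gluconeogenesis gene fbp1, for fructose-1,6-bisphosphatase, a standard readout of glucose repression, had 622 on the DETA NONOate array and 482 on the untreated array, a log2 ratio of 0.37. That gene is named here because of its role, after its value was seen. The list holds pck1, which in fission yeast is a protein kinase C gene, and the name fdh1 matched the DNA helicase gene fbh1. Without both genes the median was 0.43. Besides adh4, the genes of this list with a log2 ratio below 0 were mae1 (−0.15), gld1 (−0.10) and fbh1 (−0.04).

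Transporter genes outside the ght family also had small ratios, mostly above 0, where 49.2% of all measured genes were above 0. At 2-fold, 2.25% of all measured genes were higher and 2.04% lower. Of the list of 7 other transporters 6 were measured, 0 differed 2-fold and 5 were above 0, with a median log2 ratio of 0.48. The sucrose and maltose transporter gene sut1 had 0.64 and the inositol transporter genes itr1 and itr2 had 0.51 and −0.02. The other measured members do not carry sugars: fnx2 (0.62) and fnx1 (0.06) are for vacuolar amino acid transporters and pgt1 (0.46) is for a glutathione transporter. Of the 3 genes left without them, 2 were above 0 and the median was 0.51. In the list of branches from sugar phosphates to storage sugars, sugar nucleotides and glycerol, 8 of 13 genes were measured, 0 differed 2-fold and 7 were above 0, with a median of 0.41. The trehalose genes ntp1, tpp1 and tps1 had log2 ratios of 0.48, 0.47 and 0.45, and gpd1, for glycerol-3-phosphate dehydrogenase, had 0.45. The other glycerol-3-phosphate dehydrogenase gene of the list, gpd2, was the 1 below 0, at −0.43. This list also holds man1, for a nuclear envelope protein, without which the median was 0.45.

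**Figure D4:**
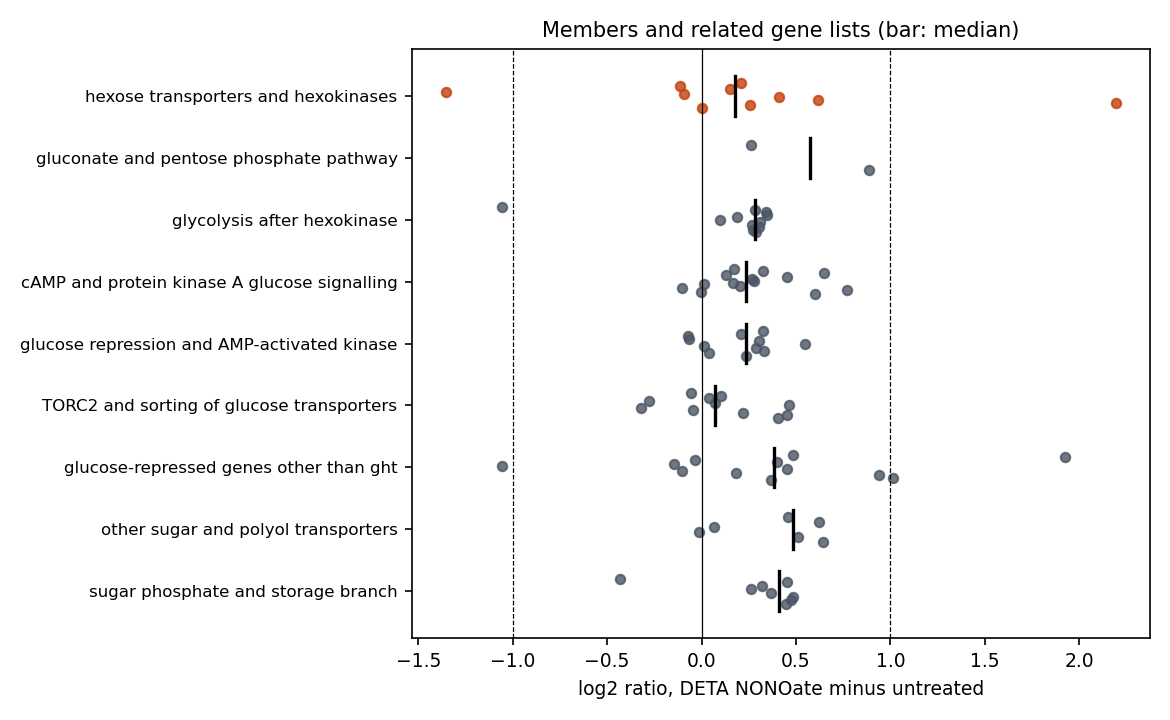
Log2 ratio (DETA NONOate minus untreated) of each measured gene in the 10 members (top row) and in the 8 related lists, with the median of each as a bar and 2-fold as dashed lines. The members span −1.36 (ght7, with its treated signal raised to background) to 2.20, and the medians of the lists lie between 0.07 and 0.57. The 0.57 rests on 2 measured genes, and the lists share some genes, among them rst2, ntp1 and fbp1.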

How the data were processed

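Total RNA from 1 DETA NONOate culture and 1 untreated culture was labelled with biotin (250 ng each) and hybridised to 1 array per group, per the labels' protocols. The authors deposited 1 linear intensity per probe set and array. Per the submitters' processing notes, the program was Affymetrix Expression Console, with version and summary method not given in the sources used here.

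Probe sets were named through the platform annotation and gene IDs of RefSeq assembly ASM294v3: of 10928, 2914 named 1 S. pombe gene, 2601 an S. cerevisiae gene, 20 several genes and 3 no settled species, 166 were controls and 5224 had no name here. For genes with several probe sets, the brightest on average was used. Ratios, ranks and counts were computed over all 2889 measured genes in Python 3.11.15 with numpy 2.4.6 and pandas 2.3.3, and the steps were tested on simulated data. In the simulation only genes with an untreated signal over 100 were changed. It therefore did not cover changes at untreated signals as dim as those of ght3, ght6 and ght7.

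The members and 8 gene lists were chosen with earlier results of these data known. The text names all members, the nearest measured protein-coding gene on each side, the 3 genes nearest in ratio to ght3, and up to 4 genes per list with the largest absolute log2 ratio. Other genes were named after their values were seen: gpm1, git3, scr1, fbp1, mae1, gld1, itr2, fnx1, gpd2, pck1, man1 and fbh1. Genes without a value here, among them shu1, idn1 and gnd1, were named for their place or role. Precision is limited by having 1 array a group. The alternatives were other background levels, scalings and fold thresholds.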

Additional observations from a re-analysis of the deposited data

How the results depend on the processing

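No member changed the sign of its log2 ratio under any of the alternatives run: background at the 99th percentile (15.3 on the DETA NONOate array and 13.2 on the untreated array), 16 added to each signal with no background level, quantile normalization, median centring, a loess trend taken out (span 0.3) and the mean of a gene's probe sets. The log2 ratio of ght3 stayed between 2.00 and 2.23. The ght7 ratio was −0.55 with background at the 99th percentile and −0.65 with 16 added, so that 0 members were at least 2-fold lower under each. At a 1.5-fold threshold 2 members were higher, and at 3-fold 0 were lower. Among the genes beside members, grt1 had −0.036 with background at the 99th percentile and −0.53 with 16 added, which also gave mug146 −1.04 and str3 6.49. The other 71 of 75 values for these genes, 58 of 60 for members and 43 of 43 for list medians moved by no more than the SD of the added control RNAs (0.24) and kept their side of 2-fold. The list alternatives were chosen after seeing the data. No paired analysis was possible because each group has 1 array. Leaving out an array was likewise not possible. Signals close to background limit ght6 and ght7, and the lack of a second culture per group limits all 10 members.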
